A study of Mus musculus with 112 samples.

Results

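Conjugation enzymes join a polar group to a drug, a steroid, a bile pigment or a reactive by-product of metabolism, so that it can be inactivated and excreted. The probe sets described here were chosen by gene symbol alone. A symbol had to begin with Gsta, Gstk, Gstm, Gsto, Gstp or Gstt (soluble glutathione transferases, GST), with Mgst (membrane glutathione transferases, MGST), with Ugt1a, Ugt2a, Ugt2b or Ugt3a (UDP-glycosyltransferases, UGT) or with Sult (cytosolic sulfotransferases, SULT). The rule found 46 of the 32640 probe sets, for 40 genes. They were 16 GST probe sets of 15 genes, 4 MGST probe sets of 3 genes, 10 UGT probe sets of 10 genes and 16 SULT probe sets of 12 genes. Of these, 45 were found by the symbol in the array annotation and 1, Sult2a8, by its updated symbol. For 6 genes there were 2 probe sets, called probe set 1 (the one that varied more within groups) and probe set 2. No probe set was named for a Ugt1a or a Gstp gene, so these subfamilies are not analysed here.

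RNA was measured on 112 arrays from epididymal fat, gastrocnemius muscle and liver of male mice. Ala/Ala mice were homozygous for a knock-in of the Pro12Ala variant of Pparγ, and Pro/Pro mice were their wild-type littermates. From an age of 8 weeks they ate a high-fat diet (HFD) or stayed on chow, for 15 weeks per the series text and for 12 weeks per the sample descriptions, which also name different feeds. The labels give no driver or cell type for the knock-in, and the diets differ in more than fat content, so a diet difference is that between the feeds as given. Fat had 8 Ala/Ala HFD, 9 Ala/Ala chow, 10 Pro/Pro HFD and 10 Pro/Pro chow arrays, muscle had 9, 10, 8 and 8 in the same order, and liver had 10 in each group. Each array is 1 numbered mouse. Every value is a ratio to a pool of the HFD Pro/Pro mice of the same tissue, given below on the log2 scale, where 0 is the pool and 1 is a doubling. A ratio gives no expression level, so values are set beside each other within a probe set and a tissue, and between tissues only as differences between diets.

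As background, glutathione transferases couple glutathione to electrophiles such as the aldehydes of lipid peroxidation, UDP-glucuronosyltransferases couple glucuronic acid to steroids, bilirubin and drugs, and sulfotransferases transfer sulfate to steroids, catecholamines and phenols. The liver is their main organ. Many are induced through nuclear receptors (CAR and PXR), the aryl hydrocarbon receptor or the stress sensor NRF2, and adipose tissue uses some of them on its own hormones and peroxidation products.

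The hepatocyte markers are defining for liver and the adipocyte markers for fat, but a ratio to a pool of the same tissue cannot test the tissue label. What it can show is a sample that departs from its tissue. In 6 of 37 fat samples the mean of 15 hepatocyte genes lay above the pool, between 0.47 and 2.34, while the other fat samples went down to -2.90. These samples were 2 Ala/Ala HFD (Mouse80 and Mouse99), 1 Ala/Ala chow (Mouse113), 2 Pro/Pro HFD (Mouse111 and Mouse143) and 1 Pro/Pro chow (Mouse73). Epididymis and testis genes stood highest in Pro/Pro HFD Mouse147, at 1.09. Results in fat are therefore given with and without 11 samples in which the mean of either list exceeded -1, a bound chosen after the values were seen. This left 4 Ala/Ala HFD, 8 Ala/Ala chow, 6 Pro/Pro HFD and 8 Pro/Pro chow samples. A call lost without the 11 samples may go with the smaller groups or with the values removed, and these cannot be told apart. All tests are limma fits over all 32640 probe sets with Benjamini-Hochberg adjustment, and a probe set was called at an adjusted p below 0.05. Errors are standard errors (SE) of the fit unless named otherwise.

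In fat, HFD lowered the oestrogen sulfotransferase Sult1e1 and a set of soluble and membrane glutathione transferases, and raised Gstm4 and Sult4a1. In Ala/Ala fat 11 of 46 member probe sets were called (4 higher on HFD, 7 lower), against a background of 26.9% of all probe sets (12.3% higher, 14.6% lower). In Pro/Pro fat 7 of 46 were called (2 higher, 5 lower), against 22.5% of all probe sets (9.36% higher, 13.1% lower). Over both genotypes 13 of 46 were called (4 higher, 9 lower), against 38.7% of all probe sets (18.4% higher, 20.3% lower). The share of members called, 23.9%, 15.2% and 28.3%, was below the background in each of these comparisons, so with all samples diet calls were no more frequent among the members than elsewhere. Without the 11 samples the share of members was still below the background in Pro/Pro fat but above it in Ala/Ala fat. The median size of the diet difference over both genotypes was 0.14 over the members and 0.11 over all probe sets. By class, 6 of 16 GST, 2 of 4 MGST, 5 of 16 SULT and 0 of 10 UGT probe sets were called over both genotypes. The SE of the diet difference had a median of 0.23 for the UGT, against 0.08 for the GST and 0.09 for the SULT probe sets. The UGT probe sets were not all wide in spread, since their SD within groups ran from 0.09 to 1.48. Why none of them was called was not tested.

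**Figure D1:**
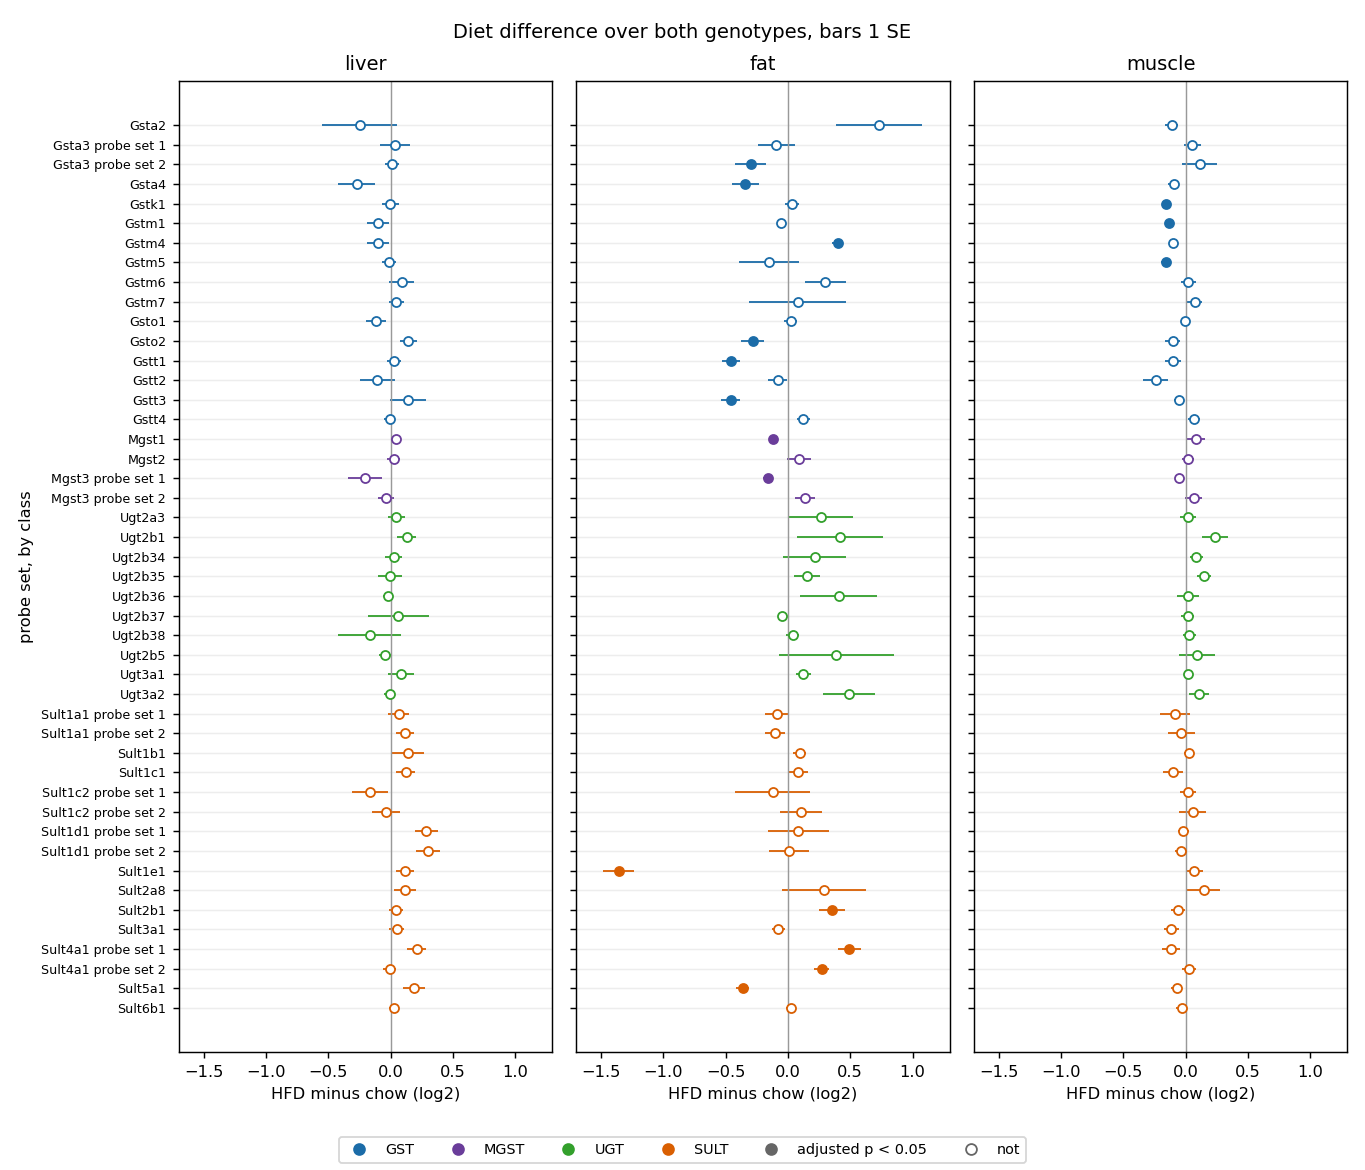
Difference between HFD and chow over both genotypes (horizontal axis, log2) for each of the 46 probe sets in liver, fat and muscle, with bars of 1 SE. Filled points passed an adjusted p of 0.05: 0 in liver, 13 in fat, where Sult1e1 lies far to the left, and 3 in muscle.

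The largest diet difference among the members was that of Sult1e1, the enzyme that sulfates and inactivates oestrogens. Its region upstream of the annotated start, chr5:87591612-87591861 on the minus strand of GRCm38.p6, is printed here because this gene carries the main result in fat.
Sult1e1: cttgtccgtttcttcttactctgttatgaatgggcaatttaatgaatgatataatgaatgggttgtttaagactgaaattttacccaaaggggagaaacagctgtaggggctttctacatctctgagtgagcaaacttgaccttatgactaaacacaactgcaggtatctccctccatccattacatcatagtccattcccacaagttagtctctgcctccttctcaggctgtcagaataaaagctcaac
The sequence is RefSeq's, 5′ to 3′, ending at the base before the annotated start. Promoter windows of 250 bases were found for 36 of the 40 genes. They were searched on both strands for TGACNNNGC, the core of the antioxidant response element through which NRF2 acts, for GCGTG, the core of the xenobiotic response element of the aryl hydrocarbon receptor, and for TATAAA, each counted whether or not it overlapped another. None of these words is in the Sult1e1 window.

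Sult1e1 ranged from -1.22 to 0.16 with a median of -0.70 in Ala/Ala HFD fat, against 0.64 to 1.54 with a median of 1.04 in Ala/Ala chow fat. It ranged from -0.75 to 0.57 with a median of 0.10 in Pro/Pro HFD fat, against 0.25 to 1.58 with a median of 1.21 in Pro/Pro chow fat. In Ala/Ala mice the diets did not overlap. In Pro/Pro mice all 10 HFD samples lay below the chow median and 7 of 10 lay below every chow sample. Sult1e1 fell by 1.53 ± 0.19 (adjusted p = 2.03e-07) in Ala/Ala fat, 2.89-fold, and by 1.19 ± 0.17 (adjusted p = 3.18e-06) in Pro/Pro fat, 2.28-fold. Without the 11 samples it fell by 1.44 ± 0.24 in Ala/Ala fat and by 1.27 ± 0.21 in Pro/Pro fat. The lowest chow value, 0.25 in Pro/Pro Mouse84, lay apart from the other 9 of its group. On HFD, Ala/Ala fat was below Pro/Pro fat by an estimate of -0.47 ± 0.18, which did not pass the test (adjusted p = 0.45). The diet effect in Ala/Ala minus that in Pro/Pro mice was -0.34 ± 0.25 and did not pass either (adjusted p = 1).

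The other sulfotransferase that fell was Sult5a1. It ranged from -0.48 to 0.01 in Ala/Ala HFD fat, against 0.07 to 0.48 in Ala/Ala chow fat, with no overlap. In Pro/Pro fat the ranges were -0.24 to 0.19 on HFD and 0.06 to 0.54 on chow. It fell by 0.44 ± 0.07 (adjusted p = 1.76e-05) in Ala/Ala fat and by 0.29 ± 0.07 (adjusted p = 0.00137) in Pro/Pro fat. Of the other SULT genes its pattern was the nearest to that of Sult1e1. Within the 4 groups, of 8 to 10 samples each, the 2 probe sets correlated with r between 0.36 and 0.83.

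Sult4a1, the sulfotransferase best known from neurons, rose on HFD. Probe set 1 ranged from -0.21 to 0.70 in Ala/Ala HFD fat, against -0.54 to 0.05 in Ala/Ala chow fat, and from -0.53 to 0.67 in Pro/Pro HFD fat, against -0.65 to -0.29 in Pro/Pro chow fat. The groups overlapped in both genotypes. The estimates were 0.57 ± 0.14 (adjusted p = 0.00158) in Ala/Ala and 0.41 ± 0.13 (adjusted p = 0.014) in Pro/Pro fat. Probe set 2 rose by 0.40 ± 0.09 (adjusted p = 0.00145) in Ala/Ala fat and had an estimate of 0.14 ± 0.09 (adjusted p = 0.263) in Pro/Pro fat. Without the 11 samples probe set 1 kept its call in Ala/Ala and lost it in Pro/Pro fat, and probe set 2 lost its call in Ala/Ala fat.

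Sult2b1, which sulfates cholesterol and related sterols, had an estimate of 0.42 ± 0.16 (adjusted p = 0.0426) in Ala/Ala fat and of 0.29 ± 0.14 (adjusted p = 0.161) in Pro/Pro fat. It ranged from -0.30 to 1.26 in Ala/Ala HFD fat, against -0.48 to 0.14 in Ala/Ala chow fat. The highest values were 1.26 in Ala/Ala HFD Mouse128 and 0.93 in Pro/Pro HFD Mouse137, which lay apart from the rest of its group. Both samples also had raised epididymis and testis genes (-0.66 and -0.17, against chow medians of -2.19 in Ala/Ala and -2.22 in Pro/Pro fat). Ala/Ala HFD Mouse80, with a mean of -0.71 for these genes, had Sult2b1 at 0.79. Yet Pro/Pro HFD Mouse147, with the highest mean (1.09), had Sult2b1 at -0.26. The part of epididymis transcripts in the Sult2b1 values was not tested. Without the 11 samples, which include Mouse128 and Mouse137, the Ala/Ala estimate was 0.21 ± 0.09 and the call was lost (adjusted p = 0.138). The Ala/Ala call was also lost with array medians subtracted (adjusted p = 0.0544), under quantile normalization (adjusted p = 0.0675), with the hepatocyte and epididymis lists as covariates (adjusted p = 0.159) and in 8 of 37 fits that left out 1 mouse. All 10 Pro/Pro HFD and 7 of 8 Ala/Ala HFD samples lay above the chow median of their genotype, and over both genotypes Sult2b1 rose by 0.35 ± 0.11 (adjusted p = 0.00763), a call lost with the covariates.

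**Figure D2:**
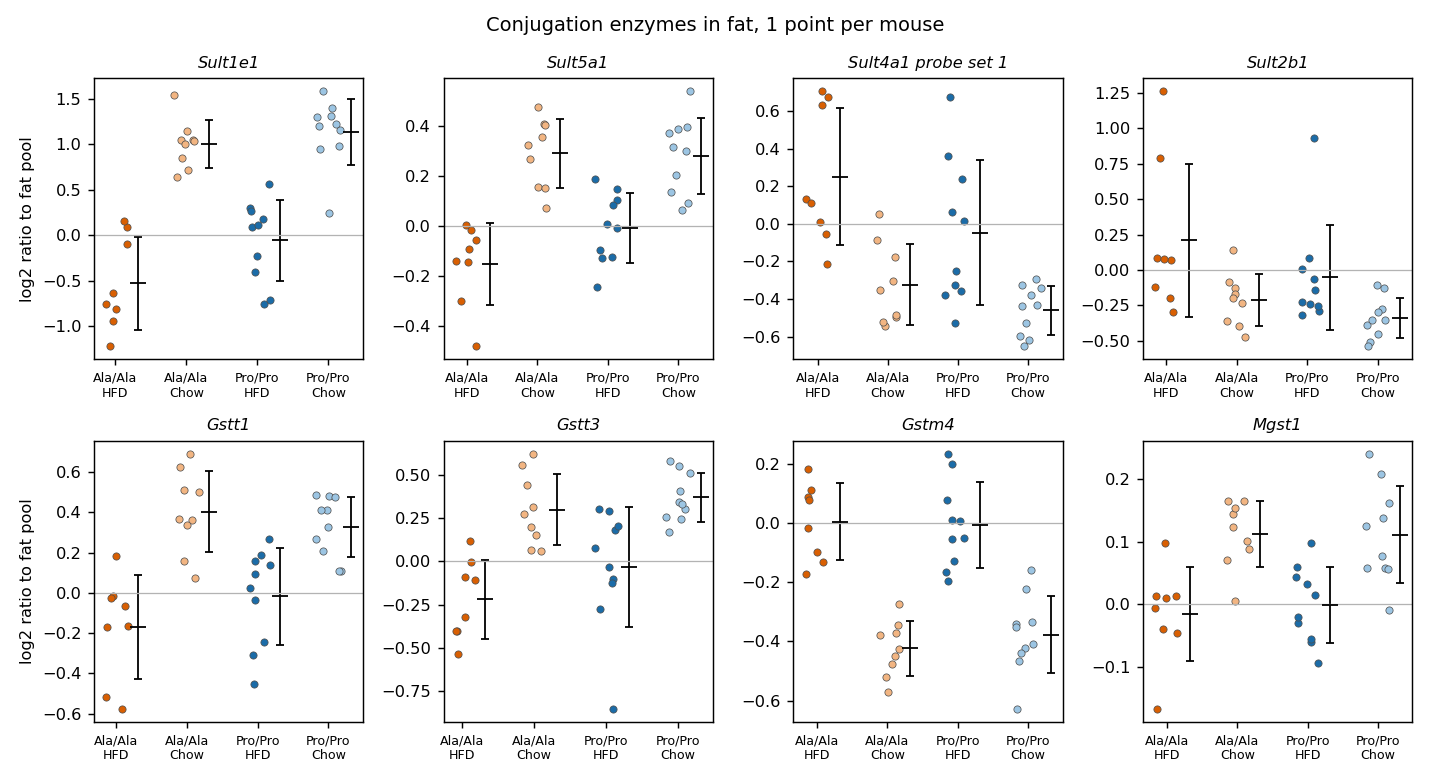
Log2 ratio to the fat pool (vertical axis) of 8 probe sets in fat, 1 point per mouse in each group of 8 to 10, with the mean and SD as a bar at the right of each group. Sult1e1 and Sult5a1 in Ala/Ala mice lie below chow on HFD without overlap, and Gstm4 lies above it.

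Among the glutathione transferases of fat, 2 of the 4 theta-class probe sets fell, Gstt1 and Gstt3. Gstt1 and Gstt3, which act on small halogenated molecules and organic peroxides, are neighbours on chromosome 10 (75783813 to 75798584 and 75774117 to 75781422). Gstt1 ranged from -0.58 to 0.18 in Ala/Ala HFD fat, against 0.07 to 0.69 in Ala/Ala chow fat, and from -0.45 to 0.27 in Pro/Pro HFD fat, against 0.11 to 0.48 in Pro/Pro chow fat. All 18 HFD samples lay below the chow median of their genotype. Gstt1 fell by 0.57 ± 0.10 (adjusted p = 5.58e-05) in Ala/Ala and by 0.35 ± 0.09 (adjusted p = 0.00565) in Pro/Pro fat. Gstt3 fell by 0.52 ± 0.11 (adjusted p = 0.000772) in Ala/Ala and by 0.40 ± 0.11 (adjusted p = 0.00427) in Pro/Pro fat, again with all HFD samples below the chow median. Both kept their calls in both genotypes without the 11 samples. The other theta members were not called: over both genotypes Gstt2 had an estimate of -0.08 ± 0.08 (adjusted p = 0.406) and Gstt4 of 0.12 ± 0.05 (adjusted p = 0.0537).

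Gstm4 moved the other way. It ranged from -0.17 to 0.18 in Ala/Ala HFD fat, against -0.57 to -0.27 in Ala/Ala chow fat, with no overlap. It ranged from -0.20 to 0.23 in Pro/Pro HFD fat, against -0.63 to -0.16 in Pro/Pro chow fat, where 8 of 10 HFD samples lay above every chow sample. Gstm4 rose by 0.43 ± 0.06 (adjusted p = 3.82e-06) in Ala/Ala and by 0.37 ± 0.06 (adjusted p = 9.56e-06) in Pro/Pro fat. It was the only one of the 16 GST probe sets called higher on HFD in any of the diet comparisons, and its neighbours in the mu cluster of chromosome 3, Gstm1, Gstm5, Gstm6 and Gstm7, were not called in fat.

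Gsta4, the alpha transferase that removes 4-hydroxynonenal and other lipid aldehydes, ranged from -1.20 to 0.40 in Ala/Ala HFD fat, against -0.08 to 0.53 in Ala/Ala chow fat. In Pro/Pro fat it ranged from -0.75 to 0.41 on HFD, against -0.08 to 0.58 on chow. The HFD samples were spread more widely than chow samples in both genotypes (SD 0.51 against 0.16 in Ala/Ala, and 0.37 against 0.22 in Pro/Pro). The estimate was -0.42 ± 0.16 (adjusted p = 0.0435) in Ala/Ala and -0.27 ± 0.14 (adjusted p = 0.201) in Pro/Pro fat, and the Ala/Ala call was lost in 11 of 37 fits that left out 1 mouse, and without the 11 samples (adjusted p = 0.0576). Over both genotypes it fell by 0.34 ± 0.11 (adjusted p = 0.0098), a call that no omission of 1 mouse removed. The omega member Gsto2 fell by 0.28 ± 0.09 (adjusted p = 0.0112) and Gsta3 probe set 2 by 0.30 ± 0.12 (adjusted p = 0.0478) over both genotypes. The Gsta3 call was lost in 23 of 37 such fits, and Gsta3 probe set 1 was not called.

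The membrane transferases, which protect membranes from lipid peroxides, changed little in size. Mgst1 fell by 0.13 ± 0.04 (adjusted p = 0.0125) in Ala/Ala and by 0.11 ± 0.04 (adjusted p = 0.0194) in Pro/Pro fat. Mgst3 probe set 1 fell by 0.18 ± 0.06 (adjusted p = 0.0227) in Ala/Ala fat, with an estimate of -0.14 ± 0.06 (adjusted p = 0.0712) in Pro/Pro fat. Without the 11 samples Mgst1 lost its call in both genotypes, and kept it over both (adjusted p = 0.025). The Ala/Ala call of Mgst3 probe set 1 was lost without the 11 samples (adjusted p = 0.203), under quantile normalization (adjusted p = 0.0502), and when Mouse122 or Mouse152 was left out, while over both genotypes it fell by 0.16 ± 0.04 (adjusted p = 0.00192). Mgst2 and Mgst3 probe set 2 were not called.

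Markers of other cells moved with diet in the same samples. The mesothelial list had 4 of 7 genes lower on HFD in Ala/Ala and in Pro/Pro fat, among them Wt1, which fell by 0.80 ± 0.12 in Ala/Ala and by 0.82 ± 0.11 in Pro/Pro mice. Its mean ranged from -1.02 to 0.28 in Ala/Ala HFD, against -0.57 to 0.67 in Ala/Ala chow fat, and from -0.57 to 0.34 in Pro/Pro HFD, against -0.26 to 0.70 in Pro/Pro chow fat. The macrophage list had 3 of 10 genes higher and 1 lower on HFD in Ala/Ala fat, and 3 higher and 2 lower in Pro/Pro fat. Its mean ranged from -0.65 to 1.21 in Ala/Ala HFD, against -0.75 to 0.66 in Ala/Ala chow fat, and from -0.52 to 0.37 in Pro/Pro HFD, against -0.64 to 0.18 in Pro/Pro chow fat. The adipocyte list had 1 of 7 higher and 2 lower in each genotype, and its mean ranged from -0.11 to 0.02 in Ala/Ala HFD, against -0.34 to -0.06 in Ala/Ala chow fat, and from -0.06 to 0.05 in Pro/Pro HFD, against -0.35 to -0.10 in Pro/Pro chow fat. The part of these shifts in the results above was not tested, and in bulk tissue fewer cells of a type and less RNA per cell cannot be told apart.

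Of the lists of genes that act before and after the transferases, some had calls between diets in fat and others had few or none. The shares of all probe sets to read them against, and the marker lists above, are again 26.9% in Ala/Ala and 22.5% in Pro/Pro fat. Of 14 genes of glutathione synthesis and reduction, 5 fell and 1 rose in Ala/Ala fat, and 4 fell and 1 rose in Pro/Pro fat. Gpx3, the plasma glutathione peroxidase, fell by 1.19 ± 0.15 in Ala/Ala and by 0.91 ± 0.14 in Pro/Pro fat. Glutathione synthetase (Gss) fell by 0.16 ± 0.06 in Ala/Ala and by 0.27 ± 0.06 in Pro/Pro fat, and glutathione reductase (Gsr) fell by 0.34 ± 0.10 in Ala/Ala and by 0.34 ± 0.09 in Pro/Pro fat. Of 15 NRF2 targets outside the members, 6 rose and 1 fell in Ala/Ala fat, and 7 rose and 0 fell in Pro/Pro fat. Ephx1, the microsomal epoxide hydrolase, rose by 0.58 ± 0.11 in Ala/Ala and by 0.48 ± 0.10 in Pro/Pro fat, while Nqo1 was not called in either (-0.16 ± 0.13 in Ala/Ala and -0.09 ± 0.12 in Pro/Pro). Of 5 genes that split conjugates or epoxides, 2 rose and 0 fell in each genotype. Gusb, the lysosomal enzyme that splits glucuronides, rose by 0.58 ± 0.12 in Ala/Ala and by 0.46 ± 0.11 in Pro/Pro fat. Of 7 genes of the aryl hydrocarbon receptor battery, 2 rose and 2 fell in Ala/Ala fat, and 1 rose and 2 fell in Pro/Pro fat. Cyp1a1, which the aryl hydrocarbon receptor induces, rose by 2.44 ± 0.50 in Ala/Ala and by 2.63 ± 0.46 in Pro/Pro fat. Of 10 exporters of conjugates 1 rose and 1 fell in Ala/Ala fat, and 0 rose and 1 fell in Pro/Pro fat. Of 12 receptors and CAR or PXR targets 1 rose and 2 fell in Ala/Ala fat, and 0 rose and 2 fell in Pro/Pro fat. None of the 9 genes of cofactor supply was called in either genotype. All of these calls had an adjusted p below 0.05 in the limma fit.

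In fat 4 of 10 UGT probe sets separated the samples with raised hepatocyte genes from the rest. The share of all probe sets that separated these samples was not counted, so whether 4 of 10 is unusual is unknown. Ugt2b5 ranged from 0.51 to 3.25 in the 6 fat samples with hepatocyte genes above the pool, and from -2.09 to -0.84 in the other 31. Ugt2b34, Ugt2b36 and Ugt2a3 were likewise separated without overlap. The other 6 UGT probe sets overlapped, and Ugt2b37 had medians of 0.05 in the 6 samples and 0.06 in the other 31. None of the GST, MGST or SULT probe sets was separated. Sult2a8, a liver sulfotransferase that acts on bile acids in mice, overlapped too, but its highest values lay in 3 of the 6 samples, at 2.47 in Ala/Ala HFD Mouse80, 2.56 in Ala/Ala chow Mouse113 and 2.55 in Pro/Pro HFD Mouse143. No UGT probe set was called between diets or genotypes in fat, and the medians of Ugt2b5 were -1.60 in Ala/Ala HFD, -1.63 in Ala/Ala chow, -1.73 in Pro/Pro HFD and -1.79 in Pro/Pro chow fat.

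Another set of probe sets varied together in fat, and its values in the samples with raised hepatocyte genes overlapped with those in the rest. Gstm7 ranged from -2.32 to 0.77 in Ala/Ala HFD, from -2.33 to 1.42 in Ala/Ala chow, from -1.80 to 0.83 in Pro/Pro HFD and from -2.22 to 1.12 in Pro/Pro chow fat. Within the 4 groups it correlated with Gstm5 (r from 0.88 to 0.99), with Sult1c2 probe set 1 (0.96 to 0.98) and with Sult1d1 probe set 1 (0.75 to 0.97), over 8 to 10 samples each. The values of a pair come from the same dissection and the same array, and the pairs were picked after their values were seen. Gstm7 was as low as -1.80 in Pro/Pro HFD Mouse143 and as high as 1.42 in Ala/Ala chow Mouse113, both with high hepatocyte genes. Gsta2 differed again: it was 2.24 in Ala/Ala HFD Mouse128, 2.47 in Pro/Pro HFD Mouse137 and 0.97 in Pro/Pro HFD Mouse95, while its median lay between -2.05 and -1.51 in the 4 groups. The mean of the epididymis and testis genes was -0.66, -0.17 and -1.31 in these samples. However, Pro/Pro HFD Mouse147, with the highest mean of these genes (1.09), had Gsta2 at -2.03. Ala/Ala HFD Mouse80, with a mean of -0.71, had Gsta2 at -0.74. The part of epididymis transcripts in the Gsta2 values was not tested.

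**Figure D3:**
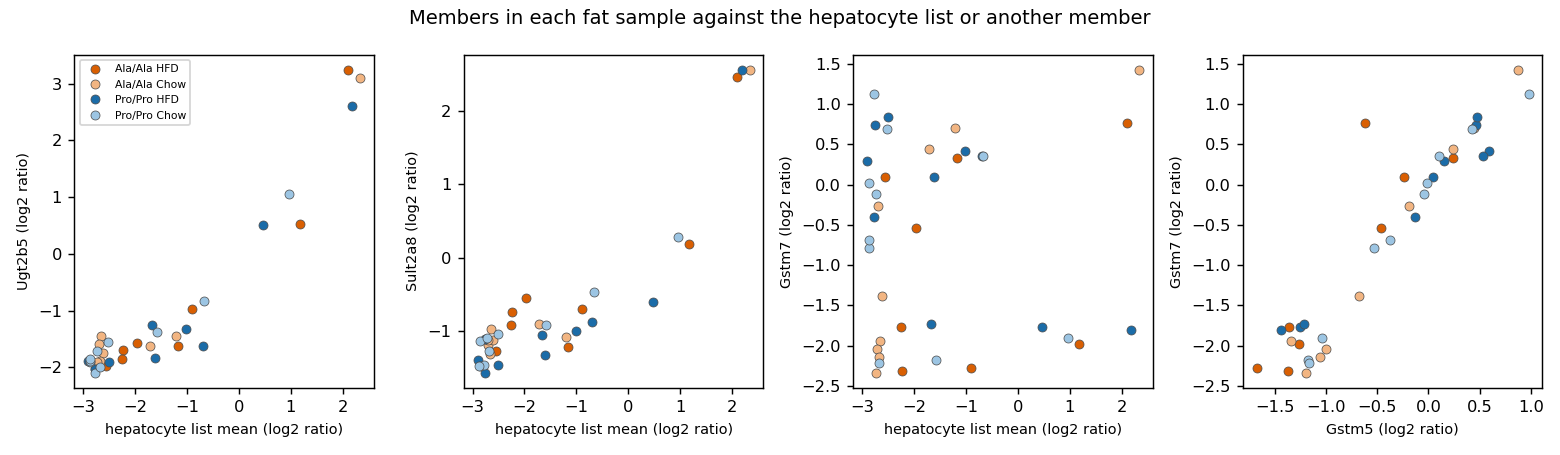
Log2 ratio of Ugt2b5, Sult2a8 and Gstm7 in each of the 37 fat samples against the mean of 15 hepatocyte genes, and of Gstm7 against Gstm5. Ugt2b5 is 0.51 or higher in the 6 samples with hepatocyte genes above the pool, whereas Gstm7 runs from -2.33 to 1.12 in the other 31 samples and from -1.99 to 1.42 in these 6, and rises along Gstm5.

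In liver no member was called in any comparison. The background was 0% of all probe sets for diet in Ala/Ala, diet in Pro/Pro, diet over both genotypes, genotype on each diet and diet by genotype, and 0.0153% for genotype over both diets. At an unadjusted p below 0.05 there were 0 of 46 members for diet in Ala/Ala (2.85% of all probe sets), 8 for diet in Pro/Pro (5.8%), 5 for diet over both genotypes (4.82%) and 3 for diet by genotype (3.56%). For genotype there were 12 of 46 on chow (9.7% of all probe sets), 2 on HFD (8.75%) and 8 over both diets (14.8%). The methods' t-test with Benjamini-Hochberg adjustment also called 0 members between genotypes. In simulated data on these livers 85% of changes of 0.5 and 100% of changes of 1 were recovered with 200 changed probe sets, so recovery would be lower where fewer change. The changed probe sets were drawn at random from all, with independent normal noise. The SD within groups had a median of 0.175 over all probe sets and 0.25 over the members, so these rates do not give the recovery for the members.

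The smallest p in liver belonged to Sult1d1, a sulfotransferase of catecholamines and other amines. Its probe set 1 ranged from -0.16 to 0.31 in Ala/Ala HFD livers, from -0.35 to 0.20 in Ala/Ala chow livers, from -0.59 to 0.60 in Pro/Pro HFD livers and from -1.19 to -0.13 in Pro/Pro chow livers. The Pro/Pro chow livers had the lowest median, -0.44. Ala/Ala minus Pro/Pro on chow was 0.43 ± 0.13 (adjusted p = 0.32) for probe set 1 and 0.50 ± 0.14 (adjusted p = 0.288) for probe set 2. HFD minus chow in Pro/Pro livers was 0.45 ± 0.13 (adjusted p = 0.847) for probe set 1. These comparisons share the Pro/Pro chow livers. Ugt2a3 followed with 0.29 ± 0.10 (adjusted p = 0.373) between genotypes on chow, and Sult5a1 with 0.35 ± 0.13 (adjusted p = 0.847) between diets in Pro/Pro livers. On HFD the smallest p between genotypes were those of Sult1c1 (-0.33 ± 0.11, adjusted p = 0.46), Mgst2 (-0.20 ± 0.08, adjusted p = 0.479) and Sult4a1 probe set 2 (-0.11 ± 0.07, adjusted p = 0.659). For diet in Ala/Ala livers they were Ugt2b5 (-0.14 ± 0.07), Ugt2b36 (-0.10 ± 0.06) and Gsto1 (-0.19 ± 0.11), each with an adjusted p of 1. Over both diets the smallest p between genotypes were those of Sult1d1 probe set 2 (0.33 ± 0.10, adjusted p = 0.113) and Mgst2 (-0.18 ± 0.05, adjusted p = 0.13), and over both genotypes Sult4a1 probe set 1 had a diet difference of 0.21 ± 0.07 (adjusted p = 0.988). For diet by genotype they were Ugt2a3 (-0.31 ± 0.14), Ugt2b1 (-0.35 ± 0.16) and Ugt2b36 (-0.17 ± 0.08), again with an adjusted p of 1.

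**Figure D4:**
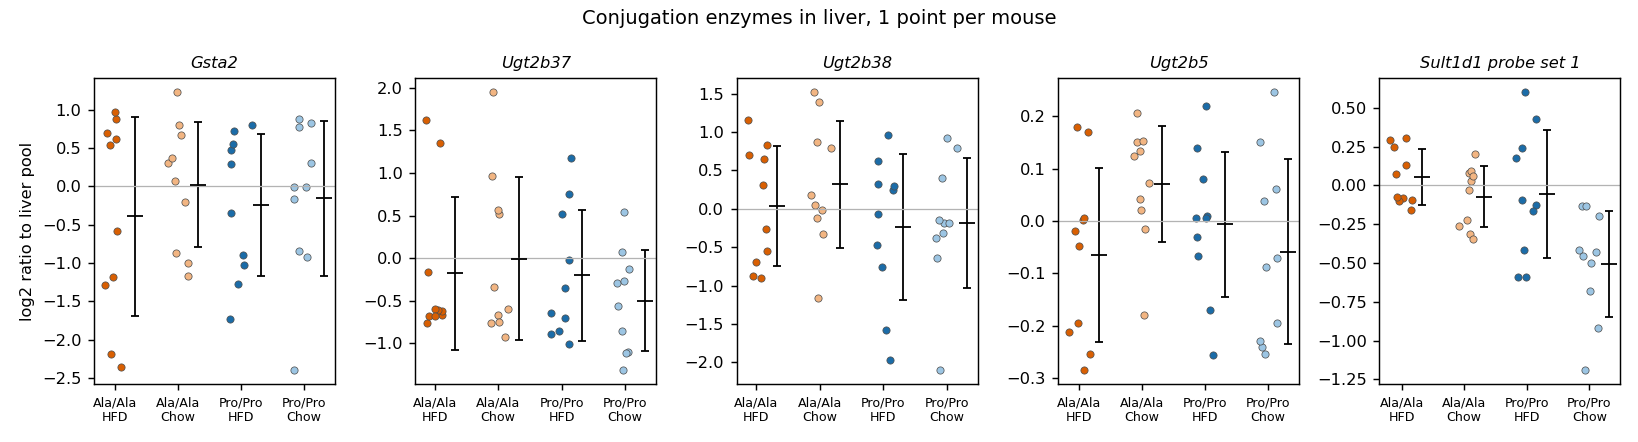
Log2 ratio to the liver pool (vertical axis) of 5 probe sets in liver, 1 point per mouse in each group of 10, with the mean and SD as a bar. Gsta2 spans from -2.39 to 1.23 with each group covering much of that range, Ugt2b5 stays within -0.28 to 0.25, and Sult1d1 probe set 1 is lowest in Pro/Pro chow livers.

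The livers differed from each other far more than the groups did. Gsta2, an inducible alpha-class transferase, ranged from -2.36 to 0.98 (median -0.02) in Ala/Ala HFD, from -1.16 to 1.23 (median 0.19) in Ala/Ala chow, from -1.73 to 0.80 (median -0.03) in Pro/Pro HFD and from -2.39 to 0.88 (median -0.01) in Pro/Pro chow livers. The whole range over 40 livers was 12.3-fold, and the SD within groups was 1.03, against a median of 0.25 over the members and 0.175 over all probe sets. Ugt2b38 (SD 0.85) and Ugt2b37 (SD 0.82) came next, with ranges of 12.2-fold and 9.57-fold. At the other end Mgst1 had an SD of 0.05 and ranged from -0.12 to 0.10.

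The spread of Gsta2 was shared by other glutathione transferases, of which Gsta4 lies on chromosome 9 like Gsta2, Gstm1 on chromosome 3 and Gsto1 on chromosome 19. Over the 40 livers, after the group means were subtracted, Gsta2 correlated with Gsta4 (r = 0.94, rho = 0.89), with the mu-class Gstm1 (r = 0.93, rho = 0.91) and with the omega-class Gsto1 (r = 0.91, rho = 0.91). Each had a two-sided permutation p of 1e-05, the smallest that 100000 resamples can give, and an adjusted p of 0.000129 (r) and 0.000182 (rho) over 1035 pairs. Without the 2 livers farthest from the median of Gsta2, r was 0.92, 0.92 and 0.90. Within the 4 groups r went from 0.89 to 0.96 for Gsta4, from 0.87 to 0.97 for Gstm1 and from 0.87 to 0.97 for Gsto1. The relation also held in each of 4 runs of 10 livers in the order of the mouse numbers, with r from 0.88 to 0.96 for Gsta4, from 0.81 to 0.94 for Gstm1 and from 0.85 to 0.94 for Gsto1. Livers with less Gsta2 therefore tended to have less of the other 3 transcripts, in every group. A second pair, Gsta3 probe set 1 and Gstm6, had r = 0.88 and rho = 0.86 (r = 0.85 without the 2 farthest livers, adjusted p = 0.000129).

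The regions upstream of the starts of Gsta2, Gstm1 and Gsto1, which varied together, and of Gsta3, which varied with the second set, are printed for comparison. Capitals mark the searched words. The windows are chr9:78347193-78347395 (minus strand), chr3:108017974-108018223 (minus strand), chr19:47854723-47854972 (plus strand) and chr1:21240335-21240564 (plus strand) on GRCm38.p6. Those of Gsta2 and Gsta3 were cut where they reached into the annotated gene, to 203 and 230 bases, and Gstm1 is shown for the first of its 2 annotated starts.
Gsta2: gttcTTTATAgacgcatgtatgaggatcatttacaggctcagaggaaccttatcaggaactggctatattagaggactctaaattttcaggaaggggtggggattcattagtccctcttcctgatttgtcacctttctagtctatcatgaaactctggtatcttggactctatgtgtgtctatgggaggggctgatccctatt
Gstm1: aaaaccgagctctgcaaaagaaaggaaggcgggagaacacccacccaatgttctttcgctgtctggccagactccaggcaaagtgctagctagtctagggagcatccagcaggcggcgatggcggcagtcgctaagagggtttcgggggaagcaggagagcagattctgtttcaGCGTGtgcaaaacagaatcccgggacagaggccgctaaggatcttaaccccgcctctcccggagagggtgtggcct
Gsto1: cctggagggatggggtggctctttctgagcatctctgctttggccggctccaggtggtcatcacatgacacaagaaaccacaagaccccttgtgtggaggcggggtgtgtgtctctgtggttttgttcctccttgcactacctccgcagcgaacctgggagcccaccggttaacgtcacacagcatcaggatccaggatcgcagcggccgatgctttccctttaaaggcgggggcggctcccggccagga
Gsta3: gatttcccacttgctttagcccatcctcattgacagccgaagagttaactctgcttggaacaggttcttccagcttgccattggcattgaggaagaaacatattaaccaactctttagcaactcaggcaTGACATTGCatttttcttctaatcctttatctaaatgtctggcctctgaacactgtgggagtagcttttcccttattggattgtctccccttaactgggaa
Of the stretches printed, that of Gsta3 holds the antioxidant response core, that of Gstm1 the xenobiotic response core and that of Gsta2 TATAAA on the other strand, far from the start, while that of Gsto1 holds none of the words. In its full window of 250 bases Gsta2 also holds a GCGTG, in the part that was cut because it lies inside the annotated gene. This GCGTG lies from 7 to 3 bases before the start to which that window was drawn, which is not the end of the printed stretch. Some genes have several annotated starts, so the 36 genes have 47 windows. TGACNNNGC was found in 4 of these 47 windows (8.51%), against 10.2% of 32851 windows of all genes, GCGTG in 8 (17.0%), against 28.2%, and TATAAA in 8 (17.0%), against 12.4%.

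**Figure D5:**
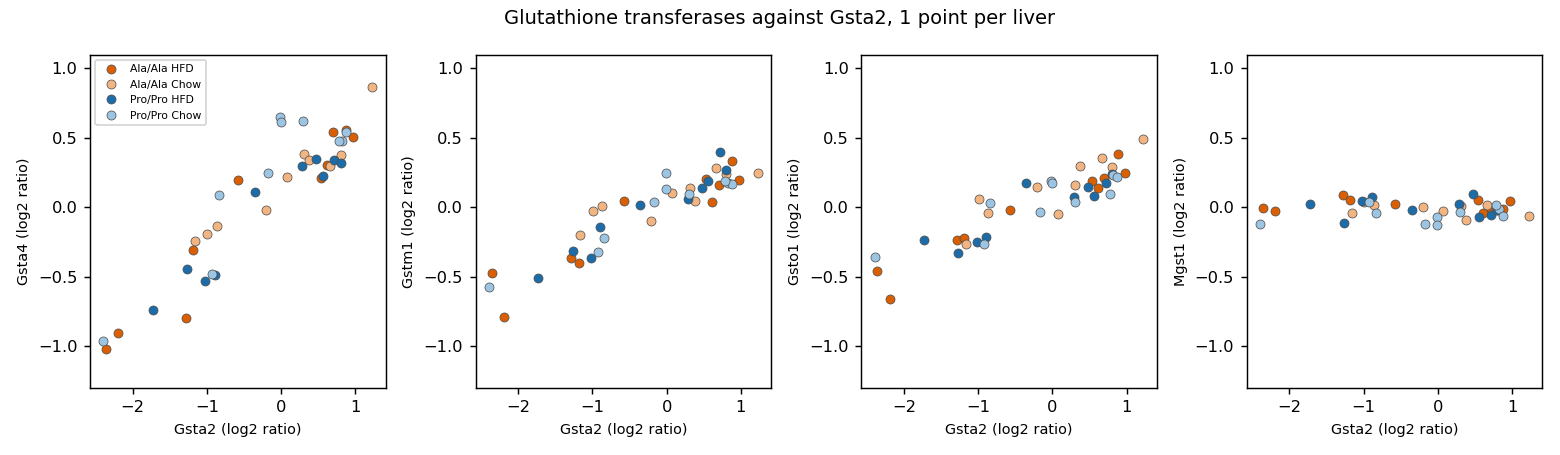
Log2 ratio of Gsta4, Gstm1, Gsto1 and Mgst1 in each of 40 livers (vertical axes) against Gsta2 (horizontal axis), coloured by group. Gsta4, Gstm1 and Gsto1 rise along Gsta2 with r of 0.91 to 0.94 over all 40 livers and of 0.87 to 0.97 within the groups, and Mgst1 stays within -0.12 to 0.10.

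Outside the members, 23 of 71 genes of the pathway lists correlated with Gsta2 across livers at an adjusted p below 0.05 (permutation of 40 livers). The share of all probe sets that correlate with Gsta2 was not computed, so this count has no background. The permutations also took no account of the mouse numbers, along which Gsta2 differed. The p may thus be too small for genes that differed along them too, and these genes were not checked within runs of mouse numbers. The highest were Cyp2c55 (r = 0.90, rho = 0.89), a target of CAR and PXR, Aox1 (r = 0.87, rho = 0.85), an aldehyde oxidase listed among the NRF2 targets, and Ephx1 (r = 0.82, rho = 0.80). Cyp2b10, the standard CAR target, had r = 0.75 and rho = 0.81. The value without the 2 farthest livers was 0.91 for Cyp2c55, 0.86 for Aox1, 0.81 for Ephx1 and 0.77 for Cyp2b10, and all 4 had an adjusted p of 0.000101. Other NRF2 targets went the other way: Txnrd1 had r = -0.53 and rho = -0.44 and Srxn1 had r = -0.52 and rho = -0.46 (adjusted p = 0.00196 and 0.00213). Nqo1 had r = 0.54 and rho = 0.48 (adjusted p = 0.00151). Of the receptors and CAR or PXR targets, Nr1i2 also passed (r = 0.57, adjusted p = 0.00071). Nr1i3 (r = 0.21), Por (0.20), Aldh1a1 (0.08) and Cyp3a13 (-0.21) did not pass, and neither did Ahr, Arnt, Hnf4a, Rxra and Ppara.

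The UGT genes of liver correlated both with each other and with glutathione transferases. Of 45 pairs of UGT genes 30 passed an adjusted p of 0.05, with a median r of 0.46. Of 160 pairs of a UGT with a GST probe set 73 did, with a median r of 0.14. Among all 1029 pairs of different member genes 298 did, with a median r of 0.097. The share among pairs of all probe sets was not computed, so these counts have no background outside the members. Here too the permutations took no account of the mouse numbers. Ugt2b34, Ugt2b1, Ugt2b35, Ugt2b36, Ugt2b5, Ugt2b37, Ugt2a3 and Ugt2b38 lie in this order on chromosome 5, between positions 86889770 and 87424203 of GRCm38.p6. Ugt2b36 and Ugt2b5, which are neighbours, correlated with r = 0.86 and rho = 0.85 (adjusted p = 0.000129). Ugt2b37 and Ugt2b38 correlated with each other (r = 0.75, rho = 0.80), and Ugt2b37 ran against Gsta3 probe set 2 (r = -0.77, rho = -0.75), both with an adjusted p of 0.000129 for r. Without the 2 farthest livers r was 0.84, 0.75 and -0.70 for these 3 pairs. Ugt2a3 ran with Gstm6 (r = 0.77, rho = 0.70) and against Ugt2b37 (r = -0.64, rho = -0.54), with r of 0.70 and -0.52 without the 2 farthest livers and adjusted p of 0.000129 and 0.000304 for r. Near-identical UGT2B sequences can share probes, and cross-hybridisation within the cluster was not tested. Ugt2b37 ranged from -0.76 to 1.63 in Ala/Ala HFD, from -0.93 to 1.95 in Ala/Ala chow, from -1.01 to 1.18 in Pro/Pro HFD and from -1.31 to 0.54 in Pro/Pro chow livers.

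In muscle, HFD lowered 3 glutathione transferases by small amounts when both genotypes entered the comparison. The 3 of 46 members called, all lower, are 6.52% of the members, against 5.37% of all probe sets (2.05% higher, 3.31% lower). Gstk1, the kappa transferase of mitochondria and peroxisomes, ranged from -0.06 to 0.24 in Ala/Ala HFD, against 0.01 to 0.25 in Ala/Ala chow muscle, and from -0.14 to 0.04 in Pro/Pro HFD, against 0.01 to 0.25 in Pro/Pro chow muscle. It fell by 0.16 ± 0.03 (adjusted p = 0.00124). Gstm5 fell by 0.16 ± 0.04 (adjusted p = 0.00668) and Gstm1 by 0.13 ± 0.04 (adjusted p = 0.0305). The Gstm1 call was lost when any 1 of Mouse91, Mouse123, Mouse125 or Mouse131 was left out. Gstm4, which rose in fat, had an estimate of -0.10 ± 0.03 in muscle (adjusted p = 0.0516). Within a genotype 0 members were called, with 1.95% of all probe sets called in Ala/Ala and 0.956% in Pro/Pro muscle. At an unadjusted p below 0.05 there were 7 members in Ala/Ala muscle (12.2% of all probe sets) and 4 in Pro/Pro muscle (12% of all probe sets), and Gstk1 had estimates of -0.14 ± 0.04 (adjusted p = 0.087) in Ala/Ala and -0.17 ± 0.05 (adjusted p = 0.0531) in Pro/Pro muscle.

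The muscle pool held 2 arrays that are not analysed here, so in muscle the scale of the ratios was taken from fat and liver. Ugt2b5 lay below the muscle pool in every sample. It ranged from -2.44 to -0.99 in Ala/Ala HFD, from -2.28 to -1.69 in Ala/Ala chow, from -2.44 to -0.98 in Pro/Pro HFD and from -2.16 to -0.58 in Pro/Pro chow muscle. The highest, Pro/Pro chow Mouse141, had a hepatocyte mean of -0.14, against a group median of -1.69. The highest hepatocyte mean in muscle, 0.27, was in Pro/Pro HFD Mouse125, where Ugt2b5 was -0.98. In the 9 muscle samples with a hepatocyte mean above -1, Ugt2b5 ranged from -1.69 to -0.58. It ranged from -2.44 to -1.65 in the other 26, so the ranges overlapped. Mgst1, which differed by genotype in its diet effect by 0.38 ± 0.14 without passing the test (adjusted p = 0.998), stood beside an adipocyte list with medians of 0.49 in Ala/Ala HFD and 0.18 in Ala/Ala chow muscle, and of -0.11 in Pro/Pro HFD and -0.12 in Pro/Pro chow muscle. Mgst1 also had a median of 0.12 in the 9 muscle samples with a hepatocyte mean above -1. Its median was -0.21 in the other 26, with overlapping ranges. The part of fat cells or of hepatocyte transcripts in the Mgst1 estimate was not tested. Gsta3 probe set 1 (0.29 ± 0.13) and probe set 2 (0.45 ± 0.28) came next in the same comparison, both with an adjusted p of 0.998.

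Between genotypes no member was called in fat or muscle either. In fat the background was 0.0153% of all probe sets on chow, 0.0705% on HFD and 0.0429% over both diets. Besides Sult1e1, the smallest p on HFD were those of Sult4a1 probe set 2 (0.22 ± 0.09, adjusted p = 0.482) and probe set 1 (0.30 ± 0.13, adjusted p = 0.515). On chow they were Gstt4 (0.10 ± 0.07), Ugt2b37 (0.06 ± 0.04) and Ugt2b38 (0.09 ± 0.07), each with an adjusted p of 1. At an unadjusted p below 0.05 there were 0 members on chow (2.27% of all probe sets), 4 on HFD (9.02%) and 2 over both diets (6.04%) in fat, where Sult1e1 had -0.30 ± 0.13 (adjusted p = 0.791). In muscle the background was 0.0184% on chow, 0.0153% on HFD and 0.0337% over both diets. The smallest p in muscle were those of Gstt3 (-0.14 ± 0.06), Gsta3 probe set 2 (-0.49 ± 0.20) and Ugt2b36 (-0.29 ± 0.12) on chow, each with an adjusted p of 1, and of Sult1e1 (-0.21 ± 0.09, adjusted p = 0.565), Mgst1 (0.20 ± 0.10, adjusted p = 0.622) and Sult1a1 probe set 1 (0.34 ± 0.17, adjusted p = 0.622) on HFD. At an unadjusted p below 0.05 there were 3 members on chow (3.19% of all probe sets), 1 on HFD (8.22%) and 3 over both diets (6.97%). The diet effect did not differ between genotypes at the threshold for any member in either tissue, with a background of 0% in both. At an unadjusted p below 0.05 this difference was seen for 0 members in fat (4.97% of all probe sets) and 2 in muscle (4.18%). In fat the smallest p for it were those of Sult4a1 probe set 2 (0.25 ± 0.13), Gstt1 (-0.23 ± 0.14) and Sult5a1 (-0.16 ± 0.10), each with an adjusted p of 1.

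The diet effect itself differed between tissues. Averaged over genotypes, the diet effect in liver minus that in fat was called for 10 of 46 members (6 positive, 4 negative), against 26.6% of all probe sets (14.0% positive, 12.5% negative). The diet effect in muscle minus that in fat was called for 10 of 46 (6 positive, 4 negative), against 25.1% (13.6% positive, 11.5% negative). The diet effect in liver minus that in muscle was called for 0 of 46, against 0.824%, with 4 members at an unadjusted p below 0.05 (9.01% of all probe sets). Sult1e1 had the largest difference, 1.47 for liver minus fat and 1.43 for muscle minus fat. Gstt1 (0.49 and 0.36), Gstt3 (0.60 and 0.41), Sult5a1 (0.55 and 0.29) and Gstm4 (-0.50 and -0.50) were called in both comparisons. For muscle minus fat the calls of Gstt3 (adjusted p = 0.129) and Sult5a1 (adjusted p = 0.0792) were lost under quantile normalization, and that of Gstt3 also without the 11 fat samples (adjusted p = 0.0645). Without these samples the calls of Mgst1 and Sult4a1 probe set 2 were lost in both comparisons, that of Sult2b1 for liver minus fat and that of Gsta3 probe set 2 for muscle minus fat. Of the UGT probe sets, Ugt3a2 alone was called, for liver minus fat (-0.50), and this call was lost under quantile normalization (-0.31, adjusted p = 0.218). With mouse number as a block, the counts were 10, 10 and 0.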

How the data were processed

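Epididymal fat, gastrocnemius muscle and liver of 41 male mice were profiled. The series text names Affymetrix mouse arrays and Rosetta Resolver, while the sample labels give dyes of both channels. The deposited values are log10 ratios to a computed pool of HFD Pro/Pro mice, separate for each tissue, per the labels (a pool made of RNA is named in the sample descriptions). In fat and liver the mean of the 10 pool arrays gave 1 within 0.001 on the log10 scale for 99.997% and 100% of probe sets, which settles base and direction. Of the 10 arrays of the muscle pool, 8 are used and 10.5% of probe sets lay within that margin, so the scale in muscle rests on the other tissues. Ratios carry no brightness, so it is unknown how far a probe set stood above background, and precision depends on how many arrays a group has.

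Ratios were turned to log2. Symbols were updated with an NCBI table of GRCm38.p6 (21388 current, 4066 by synonym, 54 kept). Of the probe sets 25508 have 1 symbol, 0 several and 7132 none. All 32640 probe sets entered a limma fit (version 3.58.1, R 4.3.3) with the groups of a tissue as its terms. Tissues were compared in 1 fit of all 12 groups. The labels number the mice, so arrays with the same number are of the same animal, and the consensus correlation between arrays of 1 mouse was -0.00688. Replicates are separately numbered mice. Promoter sequences are RefSeq's.

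The members and gene lists were chosen with earlier results of these data known. Any member could be named. Where fewer than 3 were called, the 3 with the smallest p are named, and up to 4 genes of other lists. Correlations across livers used 100000 permutations of all livers, without regard to the mouse numbers. The fit was checked on simulated data with 200 changed probe sets of 32640 for diet in Pro/Pro mice: 86% of changes of 0.5 and 98% of changes of 1 were recovered in fat, and 90% and 100% in muscle. The changed probe sets were drawn at random from all. Over all probe sets the median SD within groups was 0.17 in fat and 0.15 in muscle, against 0.29 and 0.18 over the members. The alternatives were array median centring, quantile normalization, 1 probe set per gene, probe sets above the median variance, array weights, a false discovery rate of 0.20, leaving out each mouse, the methods' t-test for genotype, and fat without 11 samples. The hepatocyte and epididymis lists as covariates were added after seeing the data.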

Additional observations from a re-analysis of the deposited data

Results flagged for a closer look

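Of 148 groups of the described probe sets, 20 had a highest or lowest sample far from the nearest other sample of its group, by Dixon's ratio. Chance alone flags about 1 in 20 groups where probe sets are independent and chosen without regard to their values. Here the probe sets were those called or named above, and the same samples recur among them. The count of 20 can therefore not be set against that rate, and the share over all probe sets was not computed. Several of the far samples were fat samples with raised hepatocyte genes (Mouse73, Mouse80, Mouse113 and Mouse143). Ugt2b5 was 3.10 in Ala/Ala chow Mouse113 and 1.06 in Pro/Pro chow Mouse73. Ugt2b1 was 2.58 in Ala/Ala chow Mouse113, 2.36 in Pro/Pro HFD Mouse143 and 0.94 in Pro/Pro chow Mouse73. Sult2a8 was 2.47 in Ala/Ala HFD Mouse80, 2.56 in Ala/Ala chow Mouse113 and 2.55 in Pro/Pro HFD Mouse143. Gsta2 was 2.24 in Ala/Ala HFD Mouse128, -0.82 in Ala/Ala chow Mouse113 and -1.09 in Pro/Pro chow Mouse73.

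Other far samples in fat were Gsta3 probe set 2 at -1.13 in Ala/Ala HFD Mouse152, Gsta4 at 0.53 in Ala/Ala chow Mouse120, Gstt3 at -0.85 in Pro/Pro HFD Mouse131 and Sult2b1 at 0.93 in Pro/Pro HFD Mouse137. Pro/Pro chow Mouse84 stood apart in 3 probe sets, with 0.30 for Mgst3 probe set 1, 0.25 for Sult1e1 and 0.31 for Sult4a1 probe set 2. In liver Ugt2b38 was -2.10 in Pro/Pro chow Mouse141, and in muscle Gstk1 was 0.24 in Ala/Ala HFD Mouse117.

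The diet effect differed between tissues by the test of the difference itself for 10 members in each of 2 comparisons. For liver minus fat the differences were 1.47 for Sult1e1, 0.60 for Gstt3, 0.55 for Sult5a1, 0.49 for Gstt1, 0.43 for Gsto2, 0.16 for Mgst1, -0.28 for Sult4a1 probe set 2, -0.31 for Sult2b1, -0.50 for Ugt3a2 and -0.50 for Gstm4. For muscle minus fat they were 1.43 for Sult1e1, 0.42 for Gsta3 probe set 2, 0.41 for Gstt3, 0.36 for Gstt1, 0.29 for Sult5a1, 0.20 for Mgst1, -0.25 for Sult4a1 probe set 2, -0.42 for Sult2b1, -0.50 for Gstm4 and -0.61 for Sult4a1 probe set 1. For liver minus fat the calls of Sult2b1 and Mgst1 were lost under quantile normalization (adjusted p = 0.0878 and 0.0776) and without the 11 fat samples (0.272 and 0.144), that of Sult4a1 probe set 2 without these samples (0.052) and that of Ugt3a2 under quantile normalization (0.218). For muscle minus fat the calls of Gsta3 probe set 2 and Gstt3 were lost under quantile normalization (adjusted p = 0.296 and 0.129) and without these samples (0.0743 and 0.0645), those of Mgst1 and Sult4a1 probe set 2 without these samples (0.0615 and 0.119) and that of Sult5a1 under quantile normalization (0.0792).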

How the results depend on the processing

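Under the alternatives run without leaving out single mice, the values of called members kept their direction in all 335 cases and passed the threshold in 302. Part of this was fixed in advance. A false discovery rate of 0.20 uses the same fit with a looser threshold, so its cases had to pass. Fits of 1 probe set per gene or of probe sets above the median variance leave each estimate unchanged, so direction could not change there either. Sult1e1, Sult5a1, Gstt1, Gstt3 and Gstm4 kept their calls in fat in both genotypes under every alternative run, with each mouse left out too. Counts of called members moved by more than 1.5 times as follows, and the cause was not tested. At a false discovery rate of 0.20 they were 13 of 46 for diet in Pro/Pro fat (36.3% of all probe sets) and 20 for diet over both genotypes in fat (55.9%), 3 for diet in Pro/Pro muscle (4.06%), 3 for diet in Ala/Ala muscle (5.34%), 6 for diet over both genotypes in muscle (13.2%) and 4 for genotype over both diets in liver (5.2%). For diet in Pro/Pro muscle the count was 1 with array medians subtracted, with 1 probe set per gene and with array weights, and for diet in Ala/Ala muscle it was 1 with array weights. With probe sets above the median variance it was 0 for diet over both genotypes in muscle. There the 3 called probe sets, Gstk1, Gstm5 and Gstm1, lay below that variance and were not tested. With single mice left out the counts ran from 7 to 8 for diet in Pro/Pro fat, from 8 to 12 for diet in Ala/Ala fat, from 12 to 15 over both genotypes in fat, from 0 to 1 in Pro/Pro and in Ala/Ala muscle and from 2 to 5 over both genotypes in muscle, and were 0 for all others. Without the 11 fat samples the counts were 6 of 46 for diet in Pro/Pro and 8 of 46 for diet in Ala/Ala fat, where 18.9% and 14% of all probe sets were called. The share of members was thus below that of all probe sets in Pro/Pro and above it in Ala/Ala fat. Mouse number as a replicate block between tissues gave 10, 10 and 0 calls and changed no call.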

Other observations

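The level of Gsta2 in liver differed along the mouse numbers, whose meaning the labels do not give beyond naming the animal. The 40 livers were put in the order of these numbers and divided into 4 runs of 10, without regard to any measured value, after the pattern had been seen. Gsta2 ranged from -2.39 to -0.01 (median -0.96) in the first run, from -1.29 to 1.23 (median 0.39) in the second, from 0.07 to 0.88 (median 0.64) in the third and from -1.73 to 0.97 (median -0.72) in the fourth. The medians of Gstm1 were -0.27, 0.14, 0.20 and 0.02, and those of Gsto1 were -0.14, 0.15, 0.20 and -0.03, in the same order. The groups were spread unevenly over the runs, since 6 of the 10 Pro/Pro chow livers lay in the first and 0 in the third. The part of the mouse numbers in the comparisons between groups was not tested.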
